A study of Mus musculus with 14 samples.

Results

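The CC chemokine ligands studied here are 7 mouse genes, Ccl2, Ccl3, Ccl4, Ccl5, Ccl6, Ccl7 and Ccl9, of the 18194 genes measured. They were listed by symbol, with earlier results of these data known, and every probe set that the platform annotation assigns to them was used. That gave 9 probe sets: 2 each for Ccl6 and Ccl9 and 1 each for the other 5 genes. CC chemokines are small secreted proteins with a pair of neighbouring cysteines near the start of the mature chain. They bind to G protein-coupled receptors on white blood cells and direct where those cells move. Ccl2 and Ccl7 attract monocytes through the receptor Ccr2. Ccl3, Ccl4 and Ccl5 are inflammatory chemokines that attract several kinds of white blood cell, and Ccl6 and Ccl9 are rodent ligands of Ccr1 that myeloid cells make. In bone marrow, Ccl2 takes part in the release of monocytes into blood, and Ccl3 was described early as an inhibitor of stem and progenitor cell division.

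Total RNA was measured on 14 Affymetrix mouse arrays in 7 groups of 2. WT cells came from Tet2+/+ Mx+ mice and KO cells from littermates on the same mixed B6/129 background that carried Mx and had lost Tet2, an enzyme that oxidises methylated cytosine, after injection of pIC. The labels do not say more of Mx, which is widely used as an interferon-responsive promoter that drives Cre in blood cells among others. WT and KO mice each gave LSK cells (lineage-negative, c-Kit and Sca1 positive, the population that holds the blood stem cells), common myeloid progenitors (CMP) and granulocyte-macrophage progenitors (GMP). LSK and CMP were taken 4 weeks after deletion, and no time is given for GMP. The last group, called replated here, was grown from CD150+ sorted Tet2-deficient LSK cells that were replated 5 times, and no replated WT cells were analysed here. Whether both arrays of each group stem from different animals or cultures is not in the labels, so each p-value measures only the spread between these samples, which may be technical.

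The arrays of a group correlated between 0.9613 and 0.9929 over all probe sets (Pearson, log2 values). Each array's floor, the highest of its bacterial control probe sets, lay between 20.8 and 27.8, and values at or below it are called below the floor. In KO sorted cells the 2 Tet2 probe sets reached 17.0 to 175 and 855 to 2376, against 65.9 to 209 and 454 to 2045 in WT. In replated cells the first was at 780 to 796, above every sorted array, and the second at 1786 to 1823. Where these probe sets lie relative to the deleted part was not analysed here, so they do not check the labels. Xist ranged from 4980 to 6634 in the 6 KO sorted arrays, from 18.7 to 29.7 in the 6 WT arrays and from 18.4 to 21.9 in replated cells. The Y-linked gene Eif2s3y was at 6.47 to 12.5, 772 to 1203 and 2056 to 2083 in the same order. The KO sorted groups therefore differ from the WT and the replated groups in sex-linked expression as well, and the part of either in a difference cannot be told apart. Of the genes used to sort the cells, Kit and Cd34 were above the floor on every array, and Fcgr3, an Fc gamma receptor gene, ranged from 386 to 571 in WT LSK, from 634 to 668 in WT CMP and from 4297 to 5002 in WT GMP. Ly6a, the gene of Sca1, is not named by a probe set of its own here.

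All 7 genes lie on chromosome 11, in 2 clusters separated by 52 other genes in the RefSeq table of assembly GRCm38.p6. Ccl2 and Ccl7 are neighbours at the start of the first cluster, followed by Ccl11, Ccl12, Ccl8 and Ccl1. The second cluster holds, in order, Ccl5, Ccl9, Ccl6, Ccl3 and Ccl4. The RefSeq promoter table holds 3 of the 7 members (Ccl3, Ccl6 and Ccl9), all of the second cluster and all much lower in replated cells. Their 250 bases before the transcription start are shown because Ccl6 and Ccl9 lie close together, share a run of 13 bases there and fell together. Coordinates are chr11:83649379-83649628 for Ccl3, chr11:83593088-83593337 for Ccl6 and chr11:83578637-83578886 for Ccl9, each on the minus strand and read 5′ to 3′, and capitals mark matches to the motifs named after them.
Ccl3: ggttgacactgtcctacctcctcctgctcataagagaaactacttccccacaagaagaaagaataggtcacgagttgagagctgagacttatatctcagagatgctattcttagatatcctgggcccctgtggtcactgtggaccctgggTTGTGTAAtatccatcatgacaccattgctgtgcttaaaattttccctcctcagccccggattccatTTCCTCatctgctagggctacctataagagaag
Ccl6: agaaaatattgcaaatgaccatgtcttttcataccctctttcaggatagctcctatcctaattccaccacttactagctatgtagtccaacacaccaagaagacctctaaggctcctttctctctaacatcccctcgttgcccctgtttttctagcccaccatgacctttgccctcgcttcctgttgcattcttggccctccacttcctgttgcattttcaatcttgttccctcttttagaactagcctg
Ccl9: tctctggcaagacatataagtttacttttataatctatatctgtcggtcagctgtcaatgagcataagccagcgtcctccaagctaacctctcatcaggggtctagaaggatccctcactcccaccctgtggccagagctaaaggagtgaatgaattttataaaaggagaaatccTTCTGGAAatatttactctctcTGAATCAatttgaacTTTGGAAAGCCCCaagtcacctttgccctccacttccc
A set of 5 motifs was sought on both strands of the 300 bases from 250 before to 50 after each start. The Ccl9 window held an NF-kB match, an AP-1 match (TGANTCA, 53 bases before the start) and 2 C/EBP matches (TTNNGNAA), and the NF-kB match overlapped the second of these. The Ccl3 window held 1 C/EBP match 100 bases before the start and 1 PU.1 match (GAGGAA, on the opposite strand) 33 bases before it. The Ccl6 window held none of the 5, and the IRF motif was in none of the 3 windows. Of the 32851 promoters in the table, 8.46% hold an NF-kB match, 7.81% an AP-1 match, 28.3% a PU.1 match, 40.7% a C/EBP match and 3.44% an IRF match, so the matches in Ccl3 are common ones. The Ccl6 and Ccl9 windows aligned to each other over 74 columns with 59 identical bases (79.7%) and 7 gaps, against 12 columns for Ccl3 with Ccl6 and 11 for Ccl3 with Ccl9. The first alignment covered bases 192 to 265 of the Ccl6 window and 233 to 299 of the Ccl9 window, and the start follows base 250. Most of the aligned bases of Ccl9, and some of those of Ccl6, thus lay after the start and are not printed. Their longest shared run was gccctccacttcc, of 13 bases. These matches describe letters in a window and say nothing of binding.

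**Figure D1:**
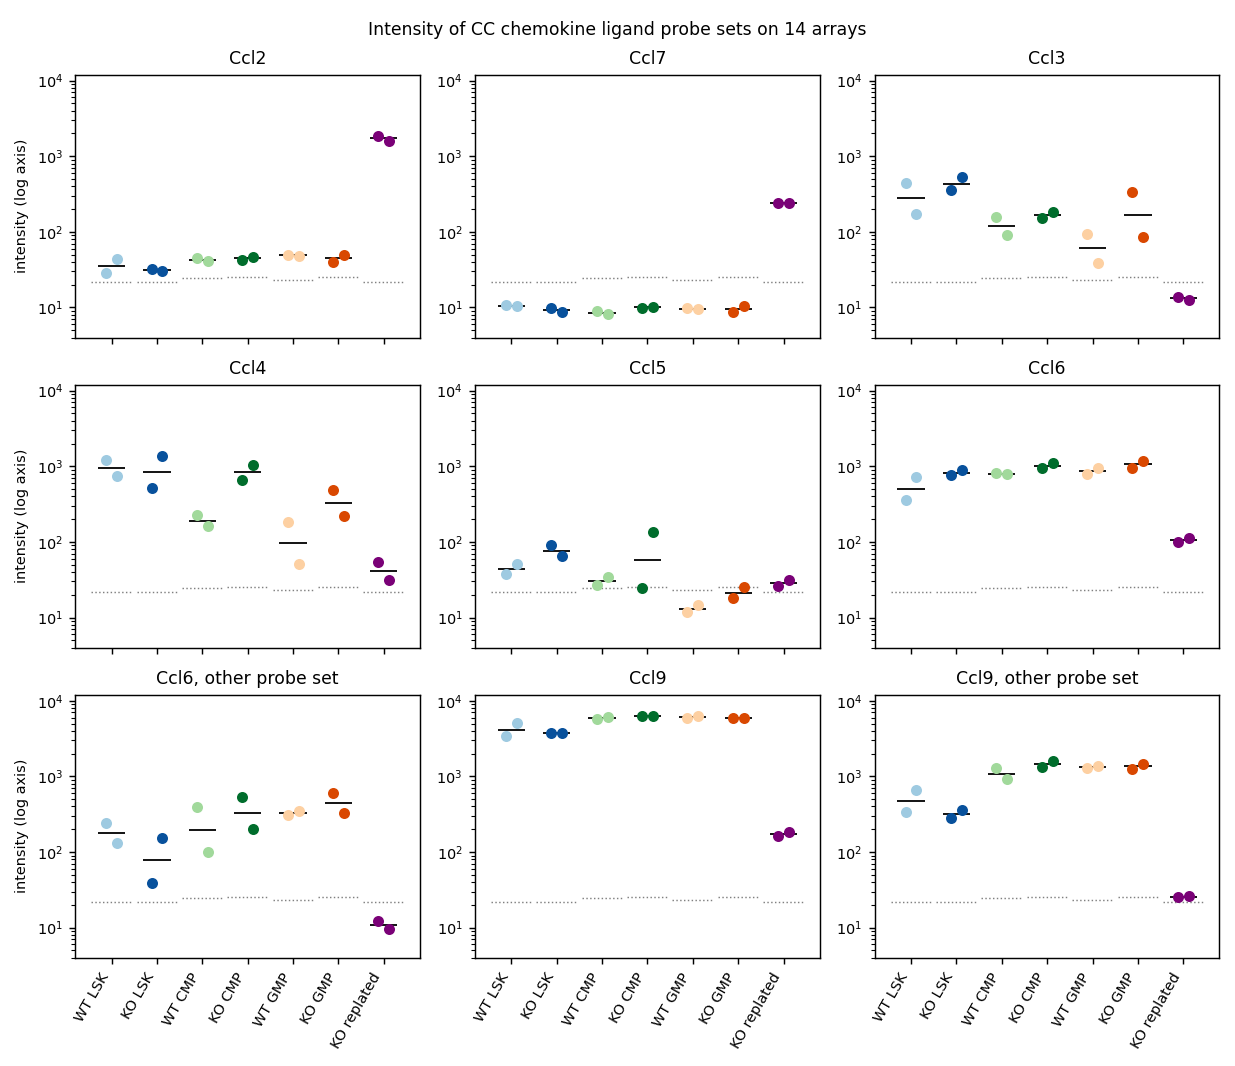
Intensity (log axis) of each of the 9 probe sets on all 14 arrays, with points for arrays, a bar for the group mean of log2 values and a dotted line for the mean floor of the group's arrays. Ccl2 and Ccl7 are high only on the 2 replated arrays, and Ccl3, Ccl4, Ccl6 and Ccl9 are lowest in the replated group.

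In replated KO cells the family split: the neighbours Ccl2 and Ccl7 rose, Ccl2 by 38.4-fold or more and Ccl7 by at least 9.40-fold, against each sorted KO population, while Ccl3, Ccl4, Ccl6 and Ccl9 fell. Ccl5 did not pass the test in either direction. In each of the comparisons with KO LSK, KO CMP and KO GMP, 2 members were higher, 4 were lower and 1 did not pass (limma, adjusted p below 0.05 over all genes). Of all genes, 25.1%, 24.4% and 25.3% passed in the same comparisons, with 10.8%, 10.3% and 10.2% higher and 14.2%, 14.1% and 15.2% lower. The median log2 difference of the 7 members was -2.94, -3.24 and -2.98, against 0.01, -0.07 and -0.06 for all genes. These 3 comparisons share the replated arrays, so they are not independent. In bulk RNA, fewer cells of a type and less RNA per cell cannot be told apart.

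Ccl2, the monocyte chemoattractant also called MCP-1, had intensities of 1851 and 1605 on the replated arrays. On the 12 sorted arrays it lay between 28.8 and 49.9 with a median of 43.1, above the floor but by a small margin. The replated arrays thus stood far above all sorted ones, whatever the genotype. Against KO LSK the log2 difference was 5.77 ± 0.20 (SE, n = 2 and 2), a 54.7-fold rise (limma adjusted p = 5.87e-08). Against KO CMP and KO GMP it was 38.4-fold and 38.8-fold (limma adjusted p = 1.02e-07 and 1.01e-07).

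Ccl7, which shares the receptor Ccr2 with Ccl2, was at 243 and 237 in replated cells. On all 12 sorted arrays it was below the floor, from 8.16 to 10.7. The rise was therefore at least 11.2-fold over KO LSK, at least 9.55-fold over KO CMP and at least 9.40-fold over KO GMP (limma adjusted p = 1.11e-08, 1.33e-08 and 1.23e-08). Ccl1, further along the same cluster, also went from below the floor in every sorted group to 40.1 and 45.2 in replated cells, at least 1.98-fold over KO LSK (limma adjusted p = 2.36e-06). Ccl8, Ccl11 and Ccl12, which lie between Ccl7 and Ccl1, were below the floor on every array. Not every gene of the first cluster was therefore measurable in the cells where Ccl2, Ccl7 and Ccl1 were higher.

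Ccl3, also known as MIP-1 alpha, was below the floor on both replated arrays, at 13.9 and 12.5. Its values were 355 and 527 in KO LSK, 152 and 181 in KO CMP, and 334 and 85.3 in KO GMP. All sorted KO arrays lay above the replated ones, and the KO GMP arrays differed most from each other. The fall was at least 19.9-fold from KO LSK, 7.63-fold from KO CMP and 7.77-fold from KO GMP (limma adjusted p = 0.00054, 0.00357 and 0.00321). The fall from KO GMP passed without either KO GMP array, and was at least 3.93-fold without replicate 1 and at least 15.4-fold without replicate 2 (limma adjusted p = 0.0227 and 0.00169).

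Ccl4, or MIP-1 beta, is encoded next to Ccl3 and was at 54.7 and 31.6 in replated cells, above the floor. In KO LSK it was at 520 and 1388, in KO CMP at 667 and 1044 and in KO GMP at 487 and 221. No sorted KO array overlapped the replated ones, but WT GMP replicate 2, at 50.7, lay between them. The fall was 20.4-fold from KO LSK, 20.1-fold from KO CMP and 7.90-fold from KO GMP (limma adjusted p = 0.00138, 0.00145 and 0.0106). From KO LSK the log2 difference of -4.35 ± 0.69 became -5.06 without KO LSK replicate 1 and -3.65 without replicate 2. The call against KO GMP ended without KO GMP replicate 1 (log2 difference -2.41, limma adjusted p = 0.085) and without replated replicate 2 (-2.59, 0.0839).

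Ccl6 was at 101 and 114 in replated cells and at 356 to 1182 on the sorted arrays, with a median of 849. It fell 7.69-fold from KO LSK, 9.44-fold from KO CMP and 9.88-fold from KO GMP (limma adjusted p = 6.39e-05, 3.48e-05 and 2.87e-05). Its other probe set, whose identifier marks probes shared with similar transcripts, was below the floor in replated cells, at 12.2 and 9.63, and ranged from 39.2 to 599 on sorted arrays. There the fall was at least 3.57-fold, 15.2-fold and 20.5-fold in the same order (limma adjusted p = 0.037, 0.00243 and 0.00141 over all probe sets). Both probe sets of Ccl6 were thus lower in replated cells.

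Ccl9, which Ccl6 resembles in part of its promoter window, was at 162 and 186 in replated cells. On the sorted arrays it ranged from 3422 to 6348, with a median of 5944. The fall was 21.7-fold from KO LSK, 36.0-fold from KO CMP and 34.2-fold from KO GMP (limma adjusted p = 1.15e-07, 4.32e-08 and 4.97e-08). The other Ccl9 probe set, at 25.5 and 26.1 in replated cells and 281 to 1595 in sorted cells, fell 12.3-fold, 56.4-fold and 52.5-fold (limma adjusted p = 3.73e-05, 1.54e-06 and 1.74e-06 over all probe sets). Of all probe sets, 9.66%, 9.5% and 10.2% passed as lower in these comparisons. The 2 probe sets of Ccl9 therefore moved the same way, with sizes that differ.

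Ccl5, the ligand also called RANTES and best known from T cells, was at 26.4 and 31.8 in replated cells. It was at 90.3 and 65.0 in KO LSK, at 24.9 and 135 in KO CMP, and below the floor in KO GMP at 18.2 and 25.1. The replated arrays lay below those of KO LSK but between the 2 arrays of KO CMP. The log2 differences were -1.40 ± 0.62 against KO LSK and -1.0 ± 0.62 against KO CMP (limma adjusted p = 0.144 and 0.316), with 95% intervals from -2.80 to -0.0045 and from -2.40 to 0.40. Against KO GMP replated cells were at least 1.13-fold higher, which did not pass (limma adjusted p = 0.709). The 2 KO CMP arrays were the furthest apart of any group, and without either of them the difference from KO LSK passed (limma adjusted p = 0.00469), as it did in a fit of only those groups' arrays (0.0254). Without KO CMP replicate 1 the difference from KO CMP was -2.22, and without KO CMP replicate 2 it was 0.22, of the opposite sign.

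**Figure D2:**
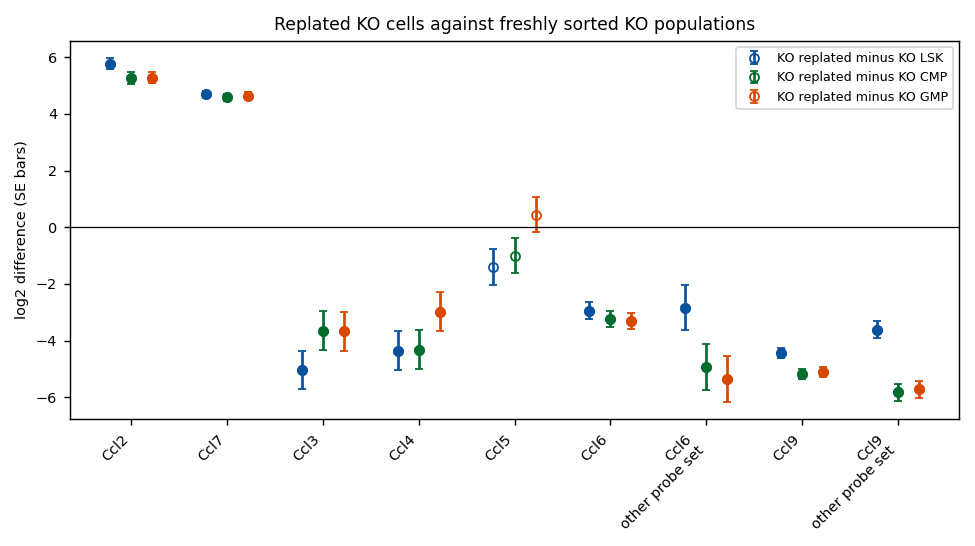
Log2 difference of replated KO cells minus KO LSK, KO CMP and KO GMP for the 9 probe sets, with SE bars. Filled points passed limma's adjusted p below 0.05 and open points, only those of Ccl5, did not. Values are as measured, so those of Ccl7 (sorted cells below the floor), Ccl3 and the other Ccl6 probe set (replated cells below it) are not exact sizes, and the Ccl7 rise raised to the floor is 3.23 to 3.48. Ccl2 lies between 5.26 and 5.77, Ccl4 between -4.35 and -2.98 and Ccl9 between -5.17 and -4.44.

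Markers of several, though not all, other cell types moved with these differences. All 10 measured mast cell and basophil genes of 11 listed were above the floor in replated cells, with a summed intensity of 78776 to 80512 against 6722 to 10618 on the sorted arrays. The mast cell proteases Mcpt4 and Cma1, below the floor in KO LSK and KO CMP, were at least 147-fold and at least 613-fold higher in replated cells than in KO CMP (limma adjusted p = 1.19e-09 and 1.35e-09). Of the 10 measured monocyte and macrophage genes of 12 listed, 7 were below the floor in replated cells, and the summed intensity was 213 to 223 against 678 to 3514 on sorted arrays. Csf1r, the receptor for the macrophage growth factor, was among these 7 and at least 49.3-fold lower than in KO CMP (limma adjusted p = 0.000106). All 8 late neutrophil genes were above the floor on every sorted array, with summed intensities of 12423 to 21571, and in replated cells 5 were below it and the sum was 148 to 166. The 8 measured dendritic cell genes of 9 listed summed to 225 to 259 against 711 to 6804, and the 5 measured B cell genes of 6 listed to 92.2 to 95.1 against 650 to 3100. The measured erythroid genes summed to 68.5 to 73.5 against 114 to 409 on sorted arrays. Other lists stayed within the range of the sorted arrays. T and NK cell genes summed to 7933 to 8473 against 4217 to 9016, and megakaryocyte and platelet genes to 2094 to 2271 against 1797 to 5163. Eosinophil genes also stayed within it, at 63.0 to 67.9 against 44.9 to 596. The part of these cell type genes in the chemokine differences was not tested.

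Some CC chemokine receptors and scavengers also changed, not all of them receptors for these ligands. Of 13 measured CC receptors and scavengers of 14 listed, 3 were higher and 1 lower against KO LSK, 2 and 2 against KO CMP, and 2 and 4 against KO GMP. The counts against KO LSK and KO CMP are near the background of 25.1% and 24.4% of all genes, and 25.3% passed against KO GMP. The median log2 difference of these genes was 0.20, -0.14 and -0.19 in the same order. Ccr1, a receptor for Ccl3, Ccl5, Ccl6 and Ccl9, was at 243 and 305 in replated cells, 7.36-fold above KO LSK and 1.93-fold below KO GMP (limma adjusted p = 3.02e-05 and 0.0203). Ccr2, the receptor of Ccl2 and Ccl7, was at 1200 and 1440, 2.62-fold below KO CMP and 2.87-fold below KO GMP (limma adjusted p = 0.0114 and 0.0066). The scavengers Ackr1 and Ackr4, which bind chemokines without classical signalling, were 9.65-fold and 5.59-fold above KO LSK (limma adjusted p = 0.00178 and 0.000619).

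Related lists gave mixed counts, to be read against the 25.1%, 24.4% and 25.3% of all genes that passed against KO LSK, CMP and GMP. Of the 10 other CC ligands measured of 11 listed, 1, 2 and 1 were higher against KO LSK, CMP and GMP and none were lower. Those were Ccl1 in each and Ccl24 against KO CMP, at least 1.16-fold (limma adjusted p = 0.0493), and the median log2 difference was 0.17, 0.04 and 0.10. Of 15 ligands of the CXC, C and CX3C families, none were higher and 3, 3 and 4 were lower, led by the platelet chemokine Pf4, 8.2-fold below KO LSK (limma adjusted p = 3.9e-06), and including Cxcl12, which retains stem cells in marrow, at least 13.6-fold below it (0.000374). Their median log2 difference was -0.28, -0.12 and -0.22. Of 15 measured genes of the NF-kB pathway and its targets of 16 listed, 3, 3 and 4 were higher and 1, 0 and 0 lower, which is close to the background, with a median of 0.17, 0.42 and 0.50. Il6, an inflammatory cytokine and NF-kB target, was at 1011 and 1326 in replated cells, at least 53.7-fold above KO LSK and 25.0-fold above KO CMP (limma adjusted p = 8.79e-06 and 0.000179). Tnfaip3, a target that restrains the pathway, was 7.60-fold and 9.56-fold higher (limma adjusted p = 0.000512 and 0.000261). Among 8 measured genes of chemokine binding and processing of 9 listed, 1 was higher and 4, 3 and 3 were lower, with a median of -1.87, -0.59 and -0.27. Dpp4, a protease that trims the ends of several chemokines, was at 18.6 and 19.2 in replated cells, below the floor and at least 205-fold under KO LSK (limma adjusted p = 8.75e-10). Sdc1, a heparan sulfate proteoglycan of the kind that holds chemokines at cell surfaces, was 49.8-fold lower than in KO LSK (limma adjusted p = 1.5e-07).

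The next comparison asked whether loss of Tet2 was accompanied by other levels of these ligands in the freshly sorted cells. None of the 7 members passed in LSK, CMP or GMP, or in the average over the 3 populations. The nearest was Ccl4, which had higher levels in KO CMP and KO GMP than in WT without passing. Of all genes, 0.264%, 0.121% and 0.0934% passed in LSK, CMP and GMP and 0.308% in the average (limma, adjusted p below 0.05). At an unadjusted p below 0.05, 1 member passed in each population and 2 in the average, against 9.91%, 6.13%, 4.43% and 9.11% of all genes. The median log2 difference of the members was -0.13, 0.35 and 0.30 in LSK, CMP and GMP, against 0.01, 0.04 and 0.02 for all genes. Both KO arrays lay above both WT arrays for 2, 4 and 3 of the 7 members in LSK, CMP and GMP, and for 18.1%, 22.9% and 19.1% of all genes. Both lay below for 1, 0 and 1 member (Ccl7 in LSK and Ccl9 in GMP), and for 15.1%, 15.1% and 15.9% of all genes. These counts include Ccl7 in LSK and CMP and Ccl5 in GMP, which were below the floor in both genotypes. The Ccl9 difference in GMP was only -0.05 on the log2 scale. On the other Ccl9 probe set the GMP arrays of KO and WT overlapped, and the KO level was the higher one.

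Ccl4 was at 225 and 163 in WT CMP and at 667 and 1044 in KO CMP. In WT GMP it was at 186 and 50.7, and in KO GMP at 487 and 221. The KO arrays lay above the WT arrays in both populations. In LSK the groups overlapped, with 1216 and 752 in WT and 520 and 1388 in KO. The log2 difference, KO minus WT, was 2.12 ± 0.69 in CMP (4.35-fold, 95% interval 1.48 to 12.8-fold, limma adjusted p = 0.633), 1.76 ± 0.69 in GMP (3.39-fold, limma adjusted p = 0.9999) and -0.17 ± 0.69 in LSK (0.977). Averaged over the 3 populations it was 1.24 ± 0.40 (limma adjusted p = 0.369). The difference in CMP exceeded that in LSK by 2.29 ± 0.97, which did not pass (limma adjusted p = 0.73). None of the 7 members passed in any of the 3 tests of a difference between populations, in which 0.022%, 0.0055% and 0% of all genes passed (limma), with 2, 0 and 0 members at an unadjusted p below 0.05 against 6.69%, 5.96% and 3.73% of all genes.

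Ccl3 was at 440 and 174 in WT LSK, 157 and 91.4 in WT CMP and 94.4 and 38.9 in WT GMP. Set against the KO values given above, the WT and KO arrays overlapped in all 3 populations. Its averaged log2 difference was 0.86 ± 0.39 with a 95% interval from -0.02 to 1.75 (limma adjusted p = 0.552). The interval thus includes no difference as well as a 3.36-fold rise.

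Ccl6 was higher on both KO arrays than on both WT arrays in all 3 populations. WT values were 356 and 716 in LSK, 810 and 781 in CMP and 782 and 943 in GMP. KO values were 766 and 889, 944 and 1089, and 951 and 1182 in the same order. The averaged log2 difference was 0.45 ± 0.17, a factor of 1.37 (limma adjusted p = 0.438). Without WT LSK replicate 2 the log2 difference was 0.62 in the average and 1.21 in LSK, and without WT LSK replicate 1 it was 0.29 and 0.20. The other Ccl6 probe set gave an averaged log2 difference of -0.01 ± 0.46 (limma adjusted p = 0.998 over all probe sets), so the 2 probe sets differ here.

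Ccl5 was at 38.2 and 51.1 in WT LSK against 90.3 and 65.0 in KO LSK, and at 27.0 and 34.2 in WT CMP against 24.9 and 135 in KO CMP. In GMP both genotypes were below the floor. The averaged log2 difference of 0.81 ± 0.36, which takes in the GMP values below the floor, did not pass (limma adjusted p = 0.546). Without KO CMP replicate 1 it was 1.21, and the difference in CMP was 2.15. Without KO CMP replicate 2 the same values were 0.40 and -0.29, so the sign in CMP depended on which array was kept. Of the 9 measured T and NK cell genes of 11 listed, 5 were above the floor on at least 1 KO CMP array and 3 on both. Cd3e, at 33.4 and 38.4, was among these 3, and Cd3d and Cd3g were below the floor on both. The summed intensity of the 9 was 5729 and 5830 in KO CMP and 5799 and 6126 in WT CMP, and their part in the Ccl5 values was not tested.

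Ccl2, Ccl7 and Ccl9 had averaged log2 differences of -0.08 ± 0.12, 0.01 ± 0.07 and -0.03 ± 0.10 (limma adjusted p = 0.883, 0.977 and 0.948). The 95% intervals lay between -0.34 and 0.19 on the log2 scale for all 3. For Ccl7 this only compares values below the floor. The other Ccl9 probe set had levels, as means of log2 values turned back to intensity, of 316 in KO LSK against 469 in WT LSK. They were 1455 against 1091 in CMP and 1355 against 1340 in GMP, and KO and WT arrays overlapped in LSK and GMP but not in CMP. On the probe sets averaged above, Ccl2 and Ccl9, high and low in replated cells, thus differed little between KO and WT sorted cells. Among their receptors, Ccr1 was higher in KO, at 284 and 298 in KO CMP against 25.0 and 27.3 in WT CMP (11.1-fold, limma adjusted p = 0.000451) and 16.3-fold higher in GMP (0.000145). It was the only one of the 13 measured CC receptors and scavengers to pass in the average over populations.

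**Figure D3:**
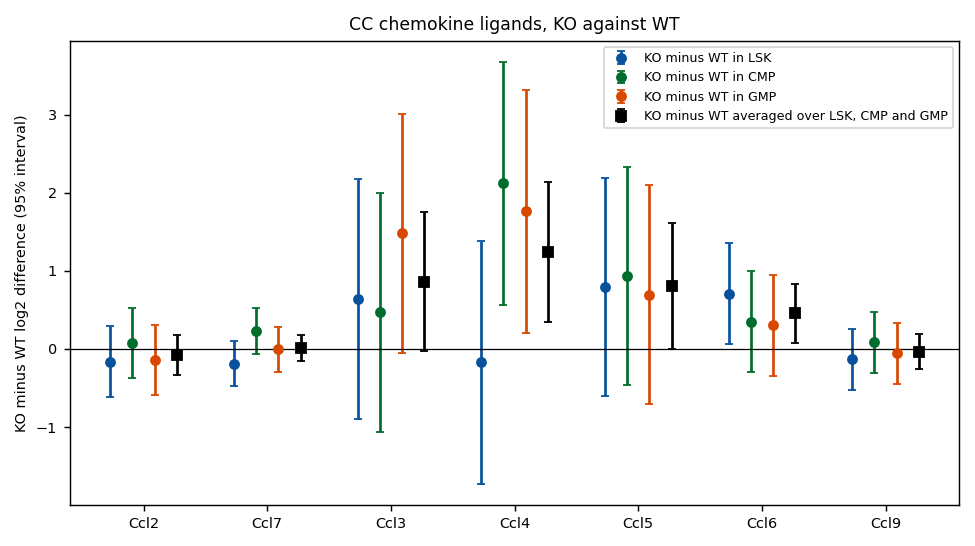
Log2 difference of KO minus WT for the 7 members in LSK, CMP and GMP and averaged over the 3, with 95% intervals from limma. The intervals of Ccl2, Ccl7 and Ccl9 are narrow around 0, and those of Ccl3, Ccl4 and Ccl5 are wide. None of the 28 values passed the adjusted test.

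In WT cells, Ccl4 fell from LSK to GMP, and Ccl3 had the same order of levels without passing. Both Ccl9 probe sets had higher levels in GMP than in LSK, and 1 of the 2 passed. From LSK to CMP and from CMP to GMP none of the 7 members passed, while 1.53% and 0.89% of all genes did (limma, adjusted p below 0.05), with 4 and 0 members at an unadjusted p below 0.05 against 11.9% and 9.62% of all genes. From LSK to GMP, 1 of 7 passed, and 7.09% of all genes did, 3.87% as lower. At an unadjusted p below 0.05 it was 6 of 7, against 20.7% of all genes. The median log2 difference of the members over that span was -0.14, against 0.07 for all genes.

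Ccl4 in WT cells was at 1216 and 752 in LSK, 225 and 163 in CMP, and 186 and 50.7 in GMP. No LSK array overlapped those of the other populations, and CMP and GMP overlapped each other. From LSK to GMP the log2 difference was -3.30 ± 0.69, a 9.86-fold fall (limma adjusted p = 0.021), and from LSK to CMP it was -2.32 ± 0.69 (4.98-fold, 0.178). The fall to GMP no longer passed in a fit of only these groups' arrays (limma adjusted p = 0.145), without WT LSK replicate 1 (-2.95, 0.117) or without WT GMP replicate 2 (-2.37, 0.131), and was -4.24 without WT GMP replicate 1 (0.014). In KO cells the levels, as means of log2 values turned back to intensity, were 850 in LSK, 834 in CMP and 329 in GMP.

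Ccl3 in WT cells had levels of 277 in LSK, 120 in CMP and 60.6 in GMP. Its log2 difference from LSK to GMP was -2.19 ± 0.68 (limma adjusted p = 0.0968). The arrays of neighbouring populations were close, with 174 as the lower LSK value and 157 as the higher CMP value. Ccl5, at 44.2 in LSK and 30.4 in CMP, was below the floor in GMP, at least 1.90-fold under LSK (limma adjusted p = 0.144, or 0.00631 without either KO CMP array).

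Ccl9 was at 3422 and 5007 in WT LSK, 5741 and 6051 in CMP, and 6002 and 6348 in GMP. The log2 difference from LSK to GMP was 0.58 ± 0.17 (limma adjusted p = 0.0848). It passed with an intensity trend in the fit (0.0359) or without WT LSK replicate 2 (0.85, 0.0105). The other Ccl9 probe set went from 334 and 658 in LSK to 1301 and 1380 in GMP, a log2 difference of 1.52 ± 0.30 that passed (2.86-fold, limma adjusted p = 0.0244 over all probe sets, of which 1.89% passed as higher). In KO cells LSK was also the lowest of the 3 sorted populations on both Ccl9 probe sets, with 3741 and 3803 against 5934 to 6262 on the brighter one.

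Ccl6 had a log2 difference from WT LSK to WT GMP of 0.77 ± 0.29, and Ccl2 of 0.47 ± 0.20 (limma adjusted p = 0.162 and 0.219). WT LSK replicate 1 was the lowest sorted array for Ccl2, at 28.8, for Ccl6, at 356, and for Ccl9, at 3422. Without WT LSK replicate 2, so against that array alone, Ccl2, Ccl6 and Ccl9 all passed from LSK to GMP (log2 0.77, 1.27 and 0.85, limma adjusted p = 0.0407, 0.00872 and 0.0105), and Ccl6 and Ccl9 also from LSK to CMP (1.16 and 0.78, 0.0263 and 0.0301). Ccl7 was below the floor in every WT population.

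Within the second cluster the neighbours Ccl3 and Ccl4 varied together. Over the 14 arrays, which share platform, amplification and normalization, their log2 values had a Pearson r of 0.921, and over the 12 sorted arrays 0.867. Ccl6 and Ccl9 had an r of 0.962 over 14 arrays and 0.670 over the 12. Ccl2 and Ccl7 had an r of 0.990 over 14 arrays and 0.0769 over the 12, where Ccl7 was below the floor, so that relation rests on the replated arrays. Ccl2 and Ccl9 changed sign between the sets, from -0.958 over 14 arrays to 0.913 over the 12 sorted ones, on which Ccl2 stayed within 28.8 to 49.9. These values describe the arrays, which fall into groups, and carry no test.

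**Figure D4:**
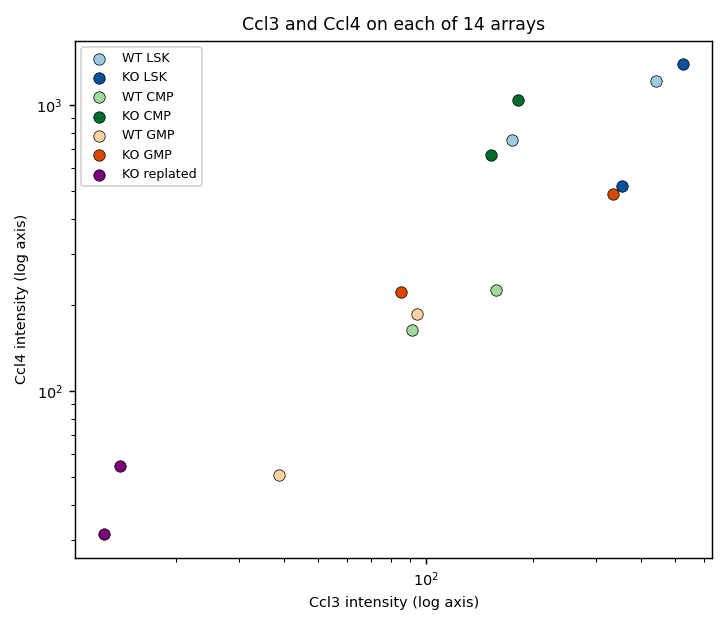
Ccl3 intensity against Ccl4 intensity on each of the 14 arrays (both log axes), coloured by group. The LSK arrays lie towards the upper right, WT GMP replicate 2 and the 2 replated arrays towards the lower left, and both KO CMP arrays have more Ccl4 than the WT CMP arrays.

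The genes whose log2 values were most like each member over the 14 arrays were named by the highest Pearson r. For Ccl7 they were the mast cell protease gene Mcpt4 (0.9989), Slc35f3 (0.9978) and Otop1 (0.9977), and for Ccl2 Fam155a (0.9944), Npy1r (0.9942) and Acsbg1 (0.9934). For Ccl9 they were Cebpa (0.9963), which encodes a transcription factor of the granulocyte and monocyte lineages, Ung (0.9960) and Nop10 (0.9954), and for Ccl6 Slc35e3, Spata24 and Hint1 (0.9842 to 0.9802). In these 4 cases the groups of replated and sorted cells set most of the range. For Ccl3 the most alike were Xpo7, Foxn3 and Ncoa7 (0.961 to 0.9545), for Ccl4 Cd200, Mrm1 and 2610008E11Rik (0.9544 to 0.9313), and for Ccl5 Ccnjl, Gm11767 and Spag1 (0.9504 to 0.8862). Over the 12 sorted arrays alone, a choice made after the values were seen, the immediate early gene Fos (0.9558) led for Ccl3 and Dusp6 (0.9425), a MAP kinase phosphatase gene, for Ccl4.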

How the data were processed

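Each of the 14 arrays was hybridised with cDNA amplified from 5 ng of total RNA, per the labels' protocols. The deposited values are linear intensities per probe set made by the authors with RMA, which corrects background, normalizes between arrays and summarises probes, per the submitters' processing notes. Its version is not given in the sources used here. Log2 was taken and no further scaling applied. Array medians were 31.2 to 33.0, and 2 arrays a group limit the precision.

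The platform annotation gives 1 gene for 34958 of 45101 probe sets and several for 932, and 9211 are not listed. For each of 18194 genes the probe set brightest on average (mean log2) was used, and other probe sets of members came from a fit of all probe sets. Groups (7, by title) were compared with limma 3.58.1 in R 4.3.3, with 1 mean per group over 14 arrays (7 residual and 2.19 prior degrees of freedom), two-sided, and Benjamini-Hochberg adjustment over all genes, and an adjusted p below 0.05 passed. Errors are limma's moderated SE. A group below the floor, set by 27 bacterial control probe sets, on all its arrays gives an "at least" fold, from the mean log2 of the brighter group and the mean log2 floor of the dimmer one. Where both lay below it, no fold was computed. The fit was tested on simulated data. Listed genes were named, up to 3 per list and comparison, by the smallest p among those that passed, and fewer are printed. Samples were not paired by replicate number in the fit: over 21 pairs of groups the deviations correlated between -0.103 and 0.100. A small effect shared by samples of 1 number would not be seen this way. Alternatives changed the normalization, background, trend, replicate block, the probe sets or genes tested together, or the samples. Each gene kept the same probe set in all of them. Members and lists were chosen with earlier results of these data known. No batch was tested.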

Additional observations from a re-analysis of the deposited data

How the results depend on the processing

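Each member's 13 comparisons were recomputed under 21 alternatives, and of the 1911 values 1890 kept their side of the threshold, 16 came to pass and 5 no longer passed. No value that passed under either setting changed sign, and 49 values that passed under neither did, among them Ccl5 in replated cells against KO CMP. Many alternatives could not change a sign, because they change only the spread or the adjustment. Those were testing every probe set, fitting only the groups compared, leaving out dim genes, the intensity trend and the replicate block. Leaving out an array of a group outside the comparison could not change it either. The count of members that passed from WT LSK to WT GMP was 1, and became 0 when only the groups compared were fitted and 2 with an intensity trend. With 1 array left out at a time, when the lone array of a group is assumed to vary like the others, the members that passed ranged from 0 to 1 for KO minus WT in LSK, in CMP and in the average, from 0 to 2 for WT CMP minus LSK and from 0 to 4 for WT GMP minus LSK. It ranged from 6 to 7 for replated cells against KO LSK and KO CMP and from 5 to 6 against KO GMP. With values below the floor raised to it, the log2 rise of Ccl7 was 3.48, 3.26 and 3.23 and the fall of Ccl3 -4.31, -2.93 and -2.96 against KO LSK, CMP and GMP, and all passed.

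Fitting only the groups compared changed the counts over all genes from 56 to 27 (KO minus WT, average), 48 to 0 (LSK), 22 to 2 (CMP), 17 to 6 (GMP), 278 to 13 (WT CMP minus LSK), 162 to 0 (WT GMP minus CMP) and 1290 to 189 (WT GMP minus LSK). Raising values to the floor gave 94 in LSK. For the difference of KO minus WT between CMP and LSK the count of 4 became 1 with only those groups, and 0 with every probe set, quantile normalization or the replicate block. Between GMP and LSK the count of 1 became 0 with only those groups and 5 with the floor. With the replicate number as a block, 4441, 4347 and 4509 genes passed in replated cells against KO LSK, CMP and GMP, and no member's call changed. Several members lie near the floor, so small differences in Ccl2, Ccl5 and Ccl7 in sorted cells would not be detectable.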
